A study of Mus musculus with 6 samples.

Results

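The genes that encode the regulators of the skeletal muscle lineage were examined in muscle of FLExDUX4 mice and wild-type (WT) littermates. They comprise the 4 genes of the MyoD family (Myod1, Myf5, Myf6 and Myog), the paired-box genes Pax3 and Pax7, and Mef2a, Mef2c and Mef2d of the myocyte enhancer factor family. All 9 were found by name among the 52550 mouse genes of the table, each on 1 row, and all 9 passed the filter on low counts, which left 13396 genes. Per the labels, RNA came from the quadriceps of males 13 weeks old, with 3 mice in each of 2 groups. As the study describes them, FLExDUX4 mice carry a human DUX4 gene at the Rosa26 locus in reverse orientation, and WT littermates lack it. The mice were hemizygous for this allele, of a strain whose name begins with B6(Cg), and are described as expressing DUX4 from it at a low, leaky level. The labels name no Cre for these mice. The methods of the study give triceps muscle and an age in months for the same experiment, which differs from the labels. Each value used here is the sum of the raw counts of a genotype, so there is 1 total per group, no spread between mice and no test of genotype.

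MyoD family proteins are basic helix-loop-helix transcription factors that bind E-boxes together with E proteins and switch on the muscle program. Myf5 and Myod1 commit cells to the lineage, Myog drives terminal differentiation, and Myf6 is the family member best known in adult fibers. Pax7 and Pax3 mark satellite cells, the stem cells of adult muscle, with Pax3 kept in only a subset of muscles. Mef2 proteins are MADS-box factors that bind AT-rich sites, cooperate with the MyoD family and are held back by class IIa histone deacetylases.

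The sequence before a RefSeq transcription start is shown for Myog, the regulator with the highest ratio between the genotypes, and for Mef2c, the most abundant regulator. Both are from RefSeq on GRCm38.p6, on the plus strand, 250 bases long and written 5′ to 3′. Capitals mark matches to the E-box core CANNTG and to TANNNNTA, the core of the Mef2 site, each of which reads the same on both strands. No 2 matches overlap in these sequences.
Myog, chr1:134289754-134290003: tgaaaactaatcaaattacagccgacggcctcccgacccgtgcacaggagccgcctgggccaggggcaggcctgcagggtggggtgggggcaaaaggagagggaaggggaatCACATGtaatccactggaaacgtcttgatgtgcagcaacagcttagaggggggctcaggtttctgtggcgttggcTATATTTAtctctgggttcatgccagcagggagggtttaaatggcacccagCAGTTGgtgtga
Mef2c, chr13:83503784-83504033: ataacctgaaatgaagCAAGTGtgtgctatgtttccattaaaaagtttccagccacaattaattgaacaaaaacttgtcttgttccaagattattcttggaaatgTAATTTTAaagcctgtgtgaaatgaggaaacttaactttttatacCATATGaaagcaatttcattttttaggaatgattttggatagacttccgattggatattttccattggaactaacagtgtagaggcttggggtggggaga

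In Myog, E-box cores began at positions -138 and -12 from the RefSeq start and the Mef2 core began at -63. The gene span in the annotation of the counts starts at 134289989, so the end of this window, with the E-box core at -12, lies inside it. In the Mef2c sequence, which lies before 1 of 3 starts given for the gene, E-box cores began at -234 and -100 and the Mef2 core at -145. The windows before the other starts held 0 and 1 E-box cores and 1 and 2 Mef2 cores. Of 32851 windows of the same length before gene starts, 66.2% held CANNTG and 34.4% held TANNNNTA, so matches of this kind are common. Windows were matched for 6 of the 9 genes. Those of Mef2a, Mef2d and Pax7 held neither core, and that of Myf5 held TANNNNTA once. Pax7 is on the minus strand, and the upstream edge of its window is at 139833218. Its annotated span runs to 139833528, so this window lies inside the gene. A match is a run of letters and does not show that a factor binds there.

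The totals came to 13110125 counts on genes in FLExDUX4 mice and 18367364 in WT mice, and added spike-in RNAs took a further 1.65% and 1.40% of counts. Totals were scaled by the TMM method, and ratios are log2 of FLExDUX4 over WT with a 95% interval that covers counting error only. Scaling to the spike-ins instead shifted every log2 ratio by -0.28. The human DUX4 transgene was not analysed here, so it gives no check of the labels, and the mouse gene Duxf3 had 0 counts in both groups. The 8 fiber markers summed to 105823 CPM (counts scaled to the size of the library) in FLExDUX4 mice and 106477 in WT mice, and 4 of 5 heart markers in WT mice and 3 of 5 in FLExDUX4 mice had at most 3 counts. Of 5 hindlimb position markers, Tbx4 alone exceeded 3 counts, with 10 in each group, whereas the forelimb marker Hoxc4 had 35 and 37 counts and Tbx5 had 14 and 34. The quadriceps of the labels is a hindlimb muscle and the triceps of the methods a forelimb muscle, so these markers go against the labelled muscle, and the samples are called muscle here.

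The myogenic regulators differed far more in level from each other than between the genotypes. QuantSeq reads the 3′ end of each transcript, so CPM can be compared between genes without dividing by length. Mef2c led at 1195 CPM in FLExDUX4 mice and 1300.3 in WT mice, above 99.7% of the genes compared in WT mice. It was followed by Mef2a, Mef2d, Myf6 and Myod1 in both genotypes, each separated from the next by more than counting error. In WT mice Mef2c exceeded Mef2a 7.72-fold (interval 7.43 to 8.01), Mef2d exceeded Myf6 3.08-fold (2.84 to 3.33) and Myf6 exceeded Myod1 1.89-fold (1.68 to 2.12). Below Myod1 the order was Pax7, Myog, Myf5 and Pax3 in WT mice and Myog, Pax7, Myf5 and Pax3 in FLExDUX4 mice. In FLExDUX4 mice none of the neighbours from Myog to Pax3 differed beyond counting error. In WT mice Pax7 exceeded Myog 2.78-fold (1.84 to 4.31), while the steps from Myog to Myf5 and from Myf5 to Pax3 stayed within counting error.

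**Figure D1:**
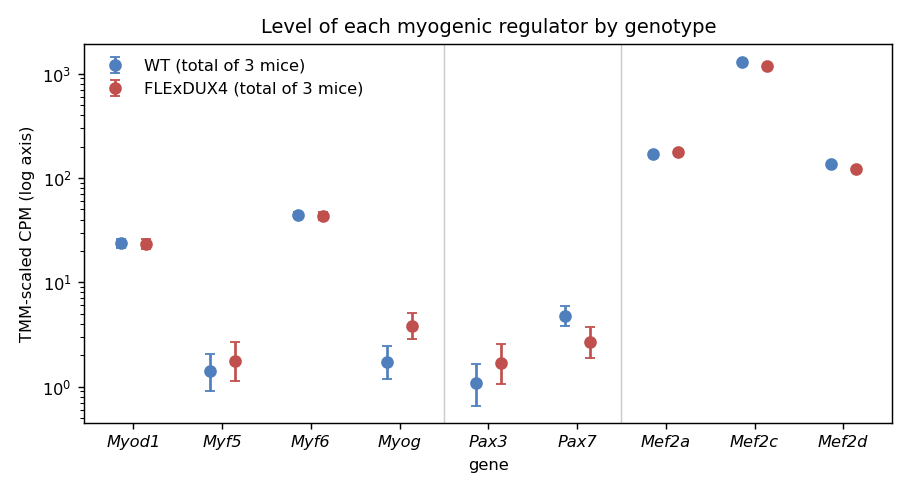
Level of each regulator in TMM-scaled CPM on a log axis, for WT (blue) and FLExDUX4 (red) totals of 3 mice each, with bars for the 95% Poisson interval of the counts. Mef2c sits highest at 1195 and 1300.3 CPM, and Myf5, Myog, Pax3 and Pax7 lie lowest in both genotypes, at 4.80 CPM or less.

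Of the 9 regulators, 2 were higher by a log2 ratio of at least 0.5 (Myog and Pax3) and 1 was lower by as much (Pax7). Among all genes compared, 31.4% were past this fold, 15.7% higher and 15.7% lower, so 3 of 9 is near the background. The counting interval excluded 0 for 5 regulators, Myog and Mef2a higher and Pax7, Mef2c and Mef2d lower. Over all genes compared that share was 41.1%, with 20.5% higher and 20.6% lower. With spike-in scaling the interval excluded 0 for 7 regulators, Myog higher and 6 lower, against 7.59% of all genes higher and 47.1% lower, and 28.5% of all genes were lower by the fold. The median log2 ratio was -0.02 for the 9 genes and -0.001 for the 13396 genes, and the median size was 0.16 against 0.28. Size depended on depth, since 65.8% of genes with under 100 counts over both groups were past the fold, against 5.42% of those with 500 to under 2000 and 1.81% of those with 2000 or more. The share whose interval excluded 0 was 38% with under 100 counts, 38.3% with 100 to under 200 and 43.3% with 500 to under 2000.

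**Figure D2:**
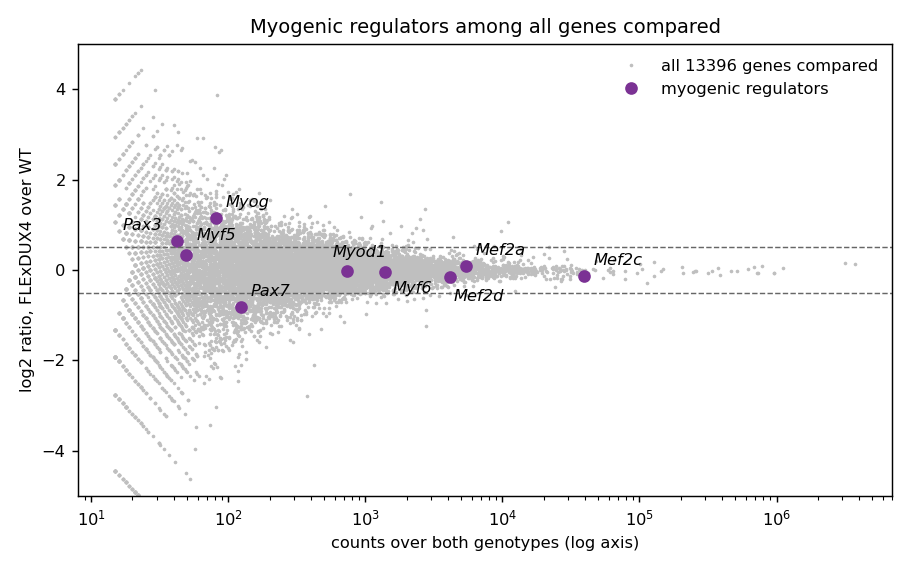
Log2 ratio of FLExDUX4 over WT totals against the counts over both genotypes (log axis) for all 13396 genes compared (grey) and the 9 regulators (purple), with dashed lines at 0.5 and -0.5, where 47 genes lie beyond the axis. The regulators with over 500 counts sit near 0, and Myog, Pax3, Myf5 and Pax7 sit where the whole cloud is wide.

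Myod1 (ENSMUSG00000009471, chr7:46376474-46379099 on GRCm38) was read 301 times in FLExDUX4 mice and 438 times in WT mice, which is 23.2 and 23.6 CPM. Its log2 ratio was -0.02, and as a fold its interval ran from 0.846 to 1.14. Myf6 (ENSMUSG00000035923, chr10:107492853-107494737) had 563 and 826 counts, or 43.4 and 44.5 CPM, a log2 ratio of -0.04 (interval -0.19 to 0.12). These are the most abundant genes of the MyoD family, and neither differed between the genotypes beyond counting error. Spike-in scaling changed this, with -0.30 (interval -0.52 to -0.09) for Myod1 and -0.31 (-0.47 to -0.16) for Myf6.

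Myf5 (ENSMUSG00000000435, chr10:107482908-107486134) lies 6718 bases from Myf6 on the same strand. With 23 FLExDUX4 counts and 26 WT counts its log2 ratio was 0.34 (interval -0.54 to 1.21). As a fold the interval ran from 0.690 to 2.31, so no difference was detectable at this depth. Its level was 1.77 and 1.40 CPM, far below that of its neighbour.

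Myog (ENSMUSG00000026459, chr1:134289989-134292548) gave 50 FLExDUX4 counts and 32 WT counts, although the FLExDUX4 total was the smaller of the 2. This is 3.85 and 1.72 CPM and a log2 ratio of 1.15 (interval 0.49 to 1.85), the highest among the regulators. With spike-in scaling the ratio was 0.88. Of 4096 genes with under 100 counts, 13.8% had a ratio at least as high. Against Myod1, Myog had a proportion of 0.166 in FLExDUX4 mice and 0.0731 in WT mice. The log2 difference of these proportions, which no scaling can move, was 1.19 (interval 0.48 to 1.91).

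**Figure D3:**
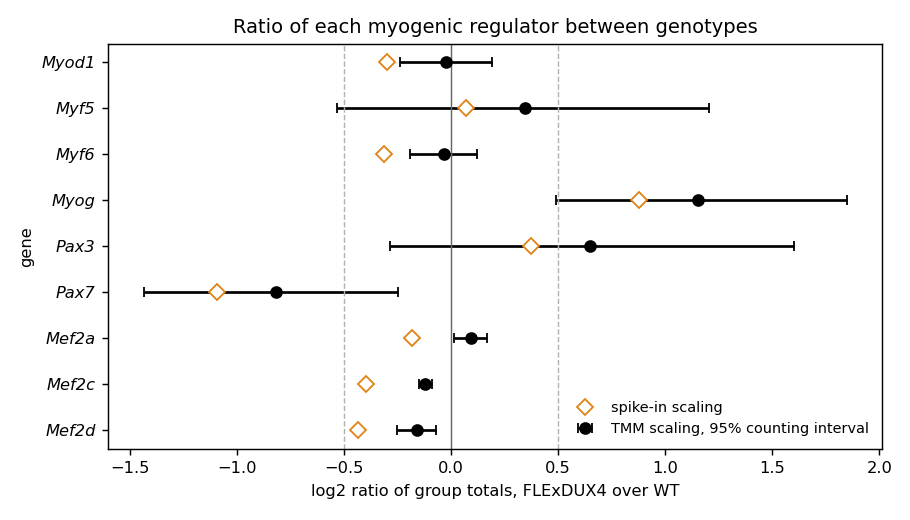
Log2 ratio of FLExDUX4 over WT group totals for each regulator under TMM scaling (black, bars are 95% counting intervals) and spike-in scaling (open diamonds), with dashed lines at 0.5 and -0.5. Myog lies highest at 1.15 and Pax7 lowest at -0.82, and spike-in scaling moves every gene to the left by the same amount.

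Pax7 (ENSMUSG00000028736, chr4:139737062-139833528) gave 35 FLExDUX4 counts and 89 WT counts, at levels of 2.70 and 4.80 CPM. This is a fold of 0.567 and a log2 ratio of -0.82 (interval -1.44 to -0.25), which spike-in scaling took to -1.09. Of 1925 genes with 100 to under 200 counts, 38.8% were past the fold in either direction and 8.83% had a ratio at least as low as that of Pax7. Pax3 (ENSMUSG00000004872, chr1:78101267-78197134) had 22 and 20 counts, a log2 ratio of 0.65 (interval -0.29 to 1.6) that did not exceed counting error, and 0.37 with spike-in scaling. Pax7 made up 61.4% (interval 47.6 to 74.0) of the counts of the pair in FLExDUX4 mice and 81.7% (73.1 to 88.4) in WT mice. The log2 difference of the Pax7 to Pax3 proportion was -1.48 (interval -2.61 to -0.35). In bulk muscle, fewer satellite cells and less of this RNA per cell cannot be told apart.

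Mef2c (ENSMUSG00000005583, chr13:83504034-83667080) gave 15510 FLExDUX4 counts and 24133 WT counts, a log2 ratio of -0.12 (interval -0.15 to -0.09). Mef2d (ENSMUSG00000001419, chr3:88142372-88172086) had 1589 and 2541 counts, or 122 and 137 CPM, a log2 ratio of -0.16 (interval -0.25 to -0.07). Mef2a (ENSMUSG00000030557, chr7:67231163-67372858) had 2328 and 3128 counts, or 179 and 169 CPM, a log2 ratio of 0.09 (interval 0.01 to 0.17) that turned to -0.19 with spike-in scaling. The ratios of Mef2c and Mef2d exceeded counting error under every scaling tried, and spike-in scaling took them to -0.40 and -0.44. The interval of Mef2a included 0 with upper quartile scaling (-0.0039 to 0.15) and with total counts on genes (-0.02 to 0.14). Among 1384 genes with 2000 or more counts the interval excluded 0 for 52.5%. Of these genes, 24.2% had a ratio at least as high as that of Mef2a. For Mef2c and Mef2d, 19.1% and 12.8% had a ratio at least as low. Proportions between the Mef2 genes do not depend on the scaling, and no share over other gene pairs was computed. The proportion of Mef2a to Mef2c was 0.150 in FLExDUX4 mice and 0.130 in WT mice, a log2 difference of 0.21 (interval 0.13 to 0.29). For Mef2a against Mef2d the log2 difference was 0.25 (0.13 to 0.37). Mef2d and Mef2c did not differ in proportion beyond counting error, with a log2 difference of -0.04 (-0.14 to 0.06). The annotation gives 31 transcripts for Mef2c, 12 for Mef2a and 7 for Mef2d, which gene counts do not tell apart. The span of Mef2a overlaps Lysmd4 on the other strand, which had 93 and 196 counts. On its own strand Mef2a overlaps Gm44667 (30 and 35 counts) and Gm44668 (1 and 2 counts). Mef2d overlaps 1700113A16Rik on the other strand (5 and 4 counts). The strand setting of the counting is not given in the sources used here.

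**Figure D4:**
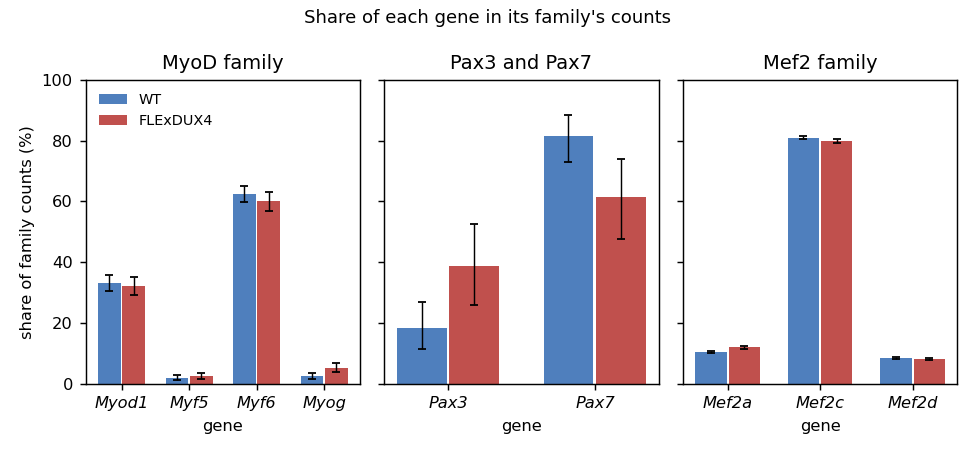
Share (%) of each gene in the counts of its own family in WT (blue) and FLExDUX4 (red) totals, with 95% Clopper-Pearson intervals. Myf6 and Mef2c hold the largest shares in both genotypes, and the pair of Pax3 and Pax7 shows the widest gap between genotypes.

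By family, the MyoD genes summed to 72.2 CPM in FLExDUX4 mice and 71.2 in WT mice, a log2 ratio of 0.02 (interval -0.10 to 0.14) that turned to -0.26 (-0.38 to -0.13) with spike-in scaling. Within this family Myf6 held 60.1% (56.9 to 63.2) and 62.5% (59.8 to 65.1) of counts, and Myod1 held 32.1% and 33.1%. Myog held 5.34% (3.99 to 6.97) in FLExDUX4 mice and 2.42% (1.66 to 3.40) in WT mice, intervals that did not overlap. Pax3 and Pax7 summed to 4.39 and 5.87 CPM, a log2 ratio of -0.41 (interval -0.91 to 0.06) that did not exceed counting error, whereas with spike-in scaling it was -0.69 (-1.18 to -0.22) and did. The Mef2 genes summed to 1497 and 1606 CPM, a log2 ratio of -0.10 (interval -0.13 to -0.07), and spike-in scaling put it at -0.38. Mef2c made up 79.8% (79.3 to 80.4) and 81.0% (80.5 to 81.4) of them. In all, 13 pairs of genes were compared by their proportions, with no adjustment of the intervals for their number.

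Genes that act with these regulators were read from lists and described by counts, since the totals used give no test. Over all genes compared the interval lay above 0 for 20.5% and below 0 for 20.6% under TMM, and for 7.59% and 47.1% with spike-in scaling, and the counts of each list stand against these shares. Of 13 E proteins, Id proteins and other partners or inhibitors compared, the interval lay above 0 for 3 and below 0 for 2, and the median log2 ratio was -0.01. The 3 were Id1 (0.32), Id2 (0.40) and Id3 (0.37), named like other genes under the fold after their values were seen, which encode inhibitors that keep E proteins from DNA. With spike-in scaling the interval lay above 0 for 0 of the 13 and below 0 for 5. The E protein genes Tcf3 and Tcf12, with ratios of -0.04 and 0.05, did not differ beyond counting error, while Tcf4 was at -0.09 (interval -0.16 to -0.02). Heyl, a Notch target, had 24 and 94 counts and a ratio of -1.43 (interval -2.16 to -0.79). Hey1, of the same list, had 32 and 36 counts and a ratio of 0.35 (interval -0.39 to 1.07), within counting error.

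Of 18 Mef2 coregulators the interval lay above 0 for 3 and below 0 for 5, with a median of -0.01, where 20.5% and 20.6% of all genes were above and below. Those above were the coactivator genes Carm1 (0.23), Ncoa2 (0.34) and Ep300 (0.30), and those below were Hdac9, Mkl1, Mapk14 (-0.15), Camk2a (-0.07) and Srf (-0.13). With spike-in scaling the interval lay above 0 for 0 and below 0 for 9 of them, where 47.1% of all genes were below. Among the class IIa histone deacetylase genes, Hdac9 had 45 and 130 counts and a ratio of -1.0 (interval -1.54 to -0.51), while Hdac4 (0.10), Hdac5 (-0.03) and Hdac7 (0.20) did not differ beyond counting error. The list also takes in Srf, the gene of serum response factor, and Mkl1, which encodes a coactivator of that factor rather than of Mef2. Mkl1 had 54 and 227 counts and a ratio of -1.55 (interval -2.01 to -1.12). The 21 muscle genes that MyoD and Mef2 factors are known to activate had a median of -0.001, and ratios from -0.47 to 0.40, so that none was past the fold. The interval lay above 0 for 7 of them and below 0 for 7. Most of them had 2000 or more counts, a range in which 1.81% of all genes were past the fold and the interval excluded 0 for 52.5%. Under spike-in scaling their median was -0.28, the interval lay above 0 for 1 and below 0 for 19, and 2 (Chrna1 and Lmod3) were lower by the fold.

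Of 14 satellite cell markers compared, the interval lay above 0 for 0 and below 0 for 3, with a median of -0.04, and 20.6% of all genes were below. Dll1, a Notch ligand, had 7 and 39 counts (ratio -1.88, interval -3.37 to -0.78), and Notch2, a Notch receptor, had 31 and 110 (ratio -1.29, interval -1.94 to -0.72). Notch3 was the other, at -0.27. Notch1, with 159 and 238 counts and a ratio of -0.06 (interval -0.36 to 0.23), did not differ beyond counting error under TMM. Cxcr4 (24 and 24 counts, ratio 0.52) and Chrdl2 (33 and 32 counts, ratio 0.56) were past the fold but not beyond counting error. Spike-in scaling put the interval below 0 for 9 of the 14, against 47.1% of all genes. Cdh15, which encodes M-cadherin, had 113 and 164 counts and a ratio of -0.02, and Chodl had 304 and 459 and a ratio of -0.08. Against Cdh15, Pax7 was lower in FLExDUX4 mice by a log2 difference of -0.81 (interval -1.52 to -0.12). The 17 markers listed summed to 156 CPM in FLExDUX4 mice and 166 in WT mice.

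Of 7 denervation-responsive genes compared, the interval lay above 0 for 3 and below 0 for 1, with a median of 0.41 under TMM and 0.14 with spike-in scaling. Under TMM 20.5% of all genes were above and 20.6% below. Musk, the receptor kinase of the neuromuscular junction, had 111 and 68 counts and a ratio of 1.22 (interval 0.78 to 1.68). Dach2 (0.41) and Chrnb1 (0.45) were also above counting error under TMM, but with spike-in scaling the interval lay above 0 for Musk alone, against a share of 7.59% over all genes. Chrna1, another acetylcholine receptor subunit gene, was at -0.47, and Runx1, with 49 and 46 counts, was past the fold at 0.61 but within counting error. Chrng, which encodes the fetal subunit, had 0 counts in both groups. Of 10 regeneration and fusion genes compared, the interval lay above 0 for Ccnd1 alone, with 194 and 154 counts and a ratio of 0.85 (lower bound 0.54), and below 0 for Actc1 alone, at -0.34. Mki67, a marker of dividing cells, had 9 and 6 counts and a ratio of 1.06 that lay within counting error. Top2a, another such marker, had 11 and 21 counts and a ratio of -0.39, also within it. The embryonic and perinatal myosin genes Myh3 (36 and 56 counts) and Myh8 (77 and 91) did not differ beyond counting error. The median of the regeneration list was 0.19 and turned to -0.08 with spike-in scaling.

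**Figure D5:**
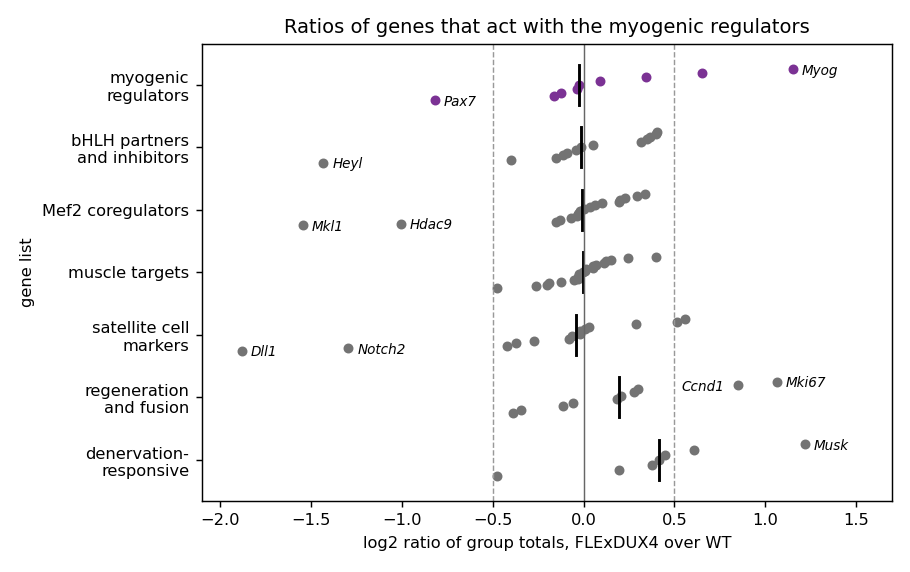
Log2 ratios of FLExDUX4 over WT totals under TMM scaling for the 9 regulators (purple) and for the genes compared in 6 lists (grey), 1 point per gene, with black bars for medians and dashed lines at 0.5 and -0.5. Medians lie near 0 except for the denervation-responsive list at 0.41 and the regeneration list at 0.19, which spike-in scaling turns to -0.08, and Dll1 at -1.88 is lowest.

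Mef2c is also known from endothelium, and the 6 endothelial markers summed to 165 CPM in FLExDUX4 mice and 189 in WT mice, with the interval below 0 for 3 and above 0 for 0 (Kdr, Emcn and Cldn5 below), or below 0 for 5 with spike-in scaling. Of all genes 20.6% were below under TMM and 47.1% with spike-in scaling. The endothelial ratios ran from -1.34 (Cldn5, 17 and 63 counts) to 0.36 (Tie1), and Kdr was at -0.56 (interval -0.70 to -0.42). Pecam1 (0.06), Cdh5 (-0.03) and Tie1 did not differ beyond counting error under TMM. The log2 difference of the Mef2c to Cdh5 proportion was -0.09 (interval -0.26 to 0.07), within counting error. The 5 adipocyte markers summed to 158 and 94.6 CPM, most of it Cfd, which was at 0.88. Adipoq was at 0.70 and Plin1 at 0.41, while Cidec (0.20) and Lep (12 and 31 counts, -0.82) did not differ beyond counting error under TMM. Spike-in scaling ended the call of Plin1 and put the interval of Lep below 0. The 6 fibroblast markers summed to 1299 and 1181 CPM with a median of 0.04, of which Col1a1 (0.53) and Lum (0.48) were above counting error. With spike-in scaling 1 of the 6 was above and 3 were below. Macrophage and leukocyte markers summed to 24.5 and 24.9 CPM with a median of -0.31 over 4 compared, and Adgre1 (-0.66), Cd68 (-0.64) and Ptprc (0.43) did not exceed counting error under TMM, while spike-in scaling put the intervals of Adgre1 and Cd68 below 0. The 5 Schwann cell markers summed to 89.2 and 87.8 CPM, and Mbp (0.26) alone exceeded counting error. The 5 smooth muscle and pericyte markers summed to 355 and 327 CPM, and Acta2 (0.38) and Tagln (0.49) exceeded it. With spike-in scaling the intervals of 3 Schwann cell markers and 1 smooth muscle marker lay below 0, and 0 of either list lay above. Their part in the ratios of the regulators was not tested.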

How the data were processed

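The authors trimmed QuantSeq 3′ reads with cutadapt 1.16 and aligned them with STAR 2.5.3a to a GRCm38 index that included the ERCC and SIRV spike-ins, and the submitters' processing notes name featureCounts 1.6.2 and DESeq2. The deposited counts used here are whole-number counts per gene, summed by the authors over the 3 mice of a genotype, without normalization. The table also holds the authors' mean and their fold changes, standard errors and p-values, which were not used. A further 6 columns of single libraries have names that match no label and were not used, so the planned edgeR quasi-likelihood test across mice was not run and no p-value is given.

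TMM factors came from edgeR 4.0.16 under R 4.3.3, computed on genes that passed filterByExpr. Log2 ratios used a pseudocount of 0.5. Intervals are 95% Clopper-Pearson or Poisson intervals (Python 3.11.15, scipy 1.17.1) or conditional odds ratio intervals for pairs, and cover counting error only. Those of the log2 ratios were tried only on simulated counts drawn with counting error alone. Such counts cannot show how the intervals hold with spread between mice or with PCR copies. PCR copies are not independent molecules. The floor was 3 counts per total. Depth is that of 1 total per genotype, and the totals do not show the spread between mice.

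The genes and lists were chosen with earlier results of these data known. All 9 regulators are named. From the 16 lists, genes past a log2 ratio of 0.5 with an interval that excludes 0 are named, up to 4 per list and direction, beside markers that check the tissue. Others were named after their values were seen. The alternatives were other scalings, no filter, another pseudocount, threshold and interval level. Coordinates are from GENCODE M21 on GRCm38 where the start equals the deposited one.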

Additional observations from a re-analysis of the deposited data

How the results depend on the processing

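No paired analysis was possible because the columns used hold 1 total per genotype, and for the same reason DESeq2, leaving out each replicate in turn, and an edgeR test with and without a filter were not run. With spike-in totals, the log2 ratios left their counting intervals for Mef2d (-0.44), Mef2c (-0.40), Mef2a (-0.19, with a change of sign), Myod1 (-0.30) and Myf6 (-0.31). This follows from the shift of -0.28 that this scaling gives every gene, whose cause was not tested. With total counts on genes, Mef2c was at -0.15, just outside its interval. RLE, upper quartile, no filter and a pseudocount of 2 kept all 9 ratios inside their TMM intervals and with their sign. The 3 regulators past a log2 ratio of 0.5 became 1, Myog, at a threshold of 1, and 2 with spike-in totals, where Pax3 was at 0.37. The 5 regulators whose interval excluded 0 became 7 with spike-in totals, and 4 with upper quartile, with total counts on genes (Mef2a lost in both) or at the 99% level. Intervals of the lists and family sums under other scalings were added after seeing the data. With spike-in scaling the interval lay above 0 for 7.59% and below 0 for 47.1% of all genes compared. Depth limits Pax3, Myf5, Myog and Pax7, whose group totals ran from 20 to 89 counts.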

Other observations

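The remaining genes of these families were chosen after their values were seen. Of the 7 other Pax genes, 4 had 0 counts in both groups (Pax1, Pax2, Pax4 and Pax8), and Pax6 had 0 and 2. Pax5, a factor of B cells, had 0 counts in FLExDUX4 mice and 17 in WT mice. Pax9 had 0 and 7 counts. Mef2b, the fourth gene of the Mef2 family, had 0 counts in both groups. Mymk, which encodes the myomaker protein of myoblast fusion, had 8 counts in FLExDUX4 mice and 1 in WT mice and was removed by the filter on low counts, and Mymx, its partner in fusion, had 0 in both.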
